A study of Mus musculus with 6 samples.

Results

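Short exonic circular RNAs (circRNAs) of the mouse primary visual cortex (V1) were examined, taken from genes that give rise to few circles. A circRNA is a closed loop made when the end of an exon is joined to the start of the same or an earlier exon, and reads that cross this back-splice junction count it. A circRNA was included when the deposited table placed both ends in exons, its genomic span (end minus start) was under 10000 bases, and its annotated gene had 1 or 2 circRNAs on that strand of a nuclear chromosome. This gave 445 of the 1488 circRNAs in the table, from 417 genes. No measured level entered this choice. The table holds circRNAs with at least 1 read in every library, and circles absent from some libraries are not part of it.

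The tissue came from 3 C57BL/6J mice, all wild-type, whose right eye was sutured shut for the 3 days before dissection at postnatal day 28. Each mouse gave a contralateral library (left V1, opposite the closed eye) and an ipsilateral library (right V1, on the same side) of total RNA, 3 per hemisphere. Both hemispheres belong to deprived animals, and the 6 libraries include none from an undeprived mouse. The study asks how deprivation relates to circRNAs of the visual cortex, in particular that of Homer1.

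Most circRNAs of animal cells are made from internal exons of protein-coding genes by the same spliceosome that makes the linear mRNA. A circle has no free ends and no poly(A) tail, so exonucleases do not readily degrade it, and many circles are abundant in neurons. Long introns on both sides, and sequences in them that pair or bind RNA-binding proteins, favour back-splicing. Because the first exon lacks an acceptor splice site, many circles begin with the second exon of their gene, the circle of the kinase gene Hipk3 being a well-known case.

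The junctions of 8 abundant circles and 3 other circles that the results return to are shown, since the junction is the only stretch that separates a circle from its linear host. Lower-case letters are the last 15 bases of the circle's final exon and capitals the first 15 bases of its first exon, 5′ to 3′ on the gene's strand, read from GENCODE M21 transcripts (GRCm38).
Fat3: tagatgatgagagtgGACGGACATGTGATA
Hipk3: atctcgctactacagGTATGGCCTCACAAG
Nfix: ttgtccacactccggGATGAGTTCCACCCG
Tcf20: atcgccagagagatgGAGGGCTGCTGGCCT
Zfp609: gtcaagtctgaaaagCAATGATGTTGTCCA
Pwwp2a: ccacccgctcagcagGTTTGGGCCCCATGG
Kcnj6: tggtggaagccacagCTAACGTCTTGGAAG
Aagab: tcgtgatgaagagtgATATCCTTGGGACAG
Pvt1: agctccctctaaaatGTCTGATTTTCTTAA
Rad52: ttctaggtagcagagCAGTACTTCCAGCCC
Cdyl: ctgttaatggaaaagGTGGAAAGTATCGTT
In Fat3, Hipk3, Tcf20, Zfp609, Nfix, Pwwp2a, Kcnj6, Pvt1 and Cdyl a single exon is closed on itself, so the lower-case and capital stretches come from the 3′ and 5′ ends of the same exon. In Aagab exon 5 is joined back to exon 2, and in Rad52 exon 11 back to exon 10. Over the 378 circles for which a junction was read, the last bases before the joint were AG in 208 (55.0%), and the first base after it was G in 170. Over all 1229 junctions read in the table, 680 (55.3%) had AG before and 549 had G after.

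Of the 445 circles, 393 (88.3%) had both ends on exon ends of 1 annotated transcript, 37 had 1 such end and 15 had none. The 393 matched circles held a median of 3 exons and a median of 492 spliced bases (quartiles 380 and 776), from a genomic span with a median of 4283 bases over all members. A single exon made up 73 of them (18.6%), 254 had 2 to 4 exons and 66 had 5 or more. The first exon of the circle was exon 2 of its transcript in 149 (37.9%) and exon 3 in 65, while none started at exon 1 and 2 held the last exon. Exon 2 was the first exon in 42.9% of the 480 matched long-span circles (10000 bases or more) of genes with 1 or 2 circRNAs, and in 31.8% of the 403 matched circles of genes with 3 or more. The start codon lay inside 94 of the 388 circles with a coding model (24.2%) and the stop codon inside 9, and 285 lay wholly in coding sequence. The circle's length was a multiple of 3 in 130 of 393 (33.1%).

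The intron before the circle had a median of 13914 bases and the one after it 9990. These were below the medians of 16529 and 16370 for the long-span circles and of 15885 and 14556 for all circRNAs. Flanking introns were shorter where circles held more exons, as a description: single-exon circles had medians of 29918 bases before and 32616 after, and circles of 5 or more exons 5916.5 and 4419.5. The span limit of the rule admits circles of several exons only where the introns inside them are short. Both intron comparisons are therefore not independent of the rule, and its part in them was not tested. Single-exon circles also had the highest level by exon number. Their median was 498 CPM (back-splice counts scaled to a library total of 1000000 back-splice reads, mean of 6 libraries), against 313 for 2 exons, 365 for 3, 246 for 4 and 301 for 5 or more. The 40 made of exon 2 alone had a median of 523 CPM and the 33 made of another single exon 463 CPM. Their quartiles overlap widely (323 to 1778 and 266 to 579 CPM), and no test was made between these classes. A back-splice level is counted at 1 junction per circle, so it does not scale with the circle's length.

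**Figure D1:**
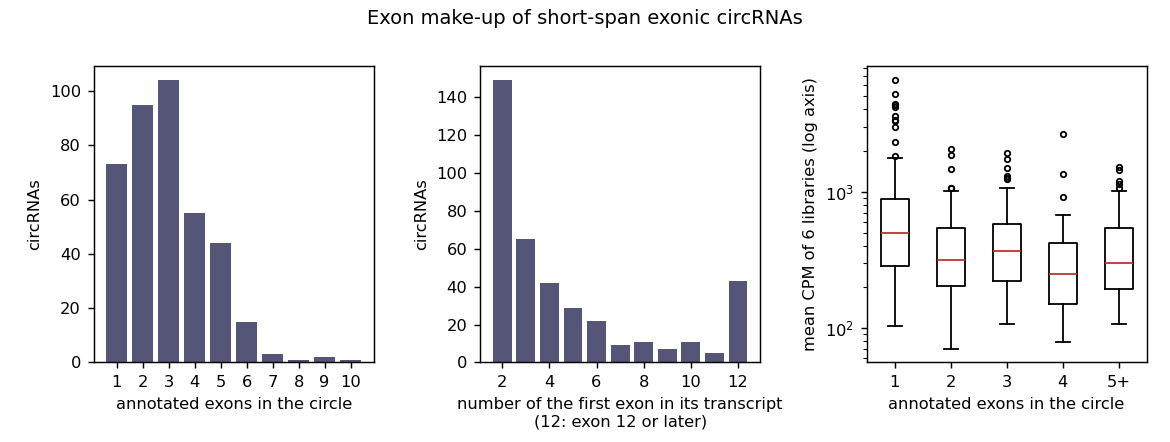
Exon make-up of the 393 short-span circRNAs whose ends match annotated exons. Left, number of circRNAs (y axis) by number of exons in the circle (x axis); middle, number of circRNAs by the number of the circle's first exon in its transcript, with exon 2 the tallest bar at 149; right, mean CPM over 6 libraries on a log axis by exon number, with boxes for quartiles, red lines for medians, whiskers to 1.5 box lengths and circles for values beyond, where single-exon circles have the highest median.

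Gene reads per library numbered 17849253 to 32213500. Back-splice reads numbered 13428 to 26867, and 3466 to 6495 of them belonged to the 445 circles. A member had a median of 5.83 reads per library (quartiles 3.67 and 10.0), 115 had a mean of at least 10 and 35 a mean of at least 20, so counting error is large for most. The mitochondrial 12S rRNA mt-Rnr1 split the libraries into a low set (contralateral 1, ipsilateral 1 and ipsilateral 3, under 100 CPM of gene reads) and a high set (the other 3), which does not follow the hemispheres. Markers of excitatory neurons, GABAergic interneurons, astrocytes, oligodendrocytes, microglia and vascular cells were all detected, with no marker at 0 over the libraries, and none of these genes hosts a member. Summed GABAergic markers stood at 308 to 366 CPM of gene reads in contralateral and 448 to 524 in ipsilateral libraries, with a median log2 fold change of -0.49 and 0 of 8 called. The part of this difference in the circRNA values was not tested, and in bulk tissue fewer cells of a type and less RNA per cell cannot be told apart.

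The 445 circles held much the same share of back-splice reads in every library. It was 25.8%, 24.1% and 24.2% on the contralateral side of mice 1 to 3 and 25.8%, 24.2% and 25.2% on the ipsilateral side, with Wilson 95% intervals reaching 0.512 to 0.740 percentage points to each side, which cover counting error only. Contralateral V1 averaged 24.7 ± 0.959% (SD, n = 3) and ipsilateral V1 25.1 ± 0.842% (exact two-sided permutation p = 0.6, where 3 against 3 cannot go below 0.1). By mt-Rnr1 set the shares were 25.2% to 25.8% in the low and 24.1% to 24.2% in the high libraries, without overlap. Per 1000 reads of their host genes, the circles gave 2.29 ± 0.527 back-splice reads in contralateral and 2.11 ± 0.281 in ipsilateral V1 (exact two-sided permutation p = 0.6, n = 3). This measure went the other way from the share and was lower in the low set (1.69 to 2.18) than in the high set (2.36 to 2.68). All back-splice reads, as CPM of gene reads, were also lower in the low set, at 666 to 771 in the low and 834 to 969.9 in the high libraries.

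A few circles held much of the signal. The most abundant took 6.52% of member reads, and the top 12 took 24.2%. Of these 12, 9 were single exons, 8 of them exon 2, and 6 held a start codon.

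Tulp4, which encodes a tubby-like protein, gave the most abundant circle (chr17:6137211-6139156, plus strand). Its CPM was 18939, 12555 and 15353 in the contralateral libraries of mice 1 to 3, and 17526, 15189 and 19187 in their ipsilateral libraries; later values keep this order. The groups overlap, and the highest library is 1.53 times the lowest. Only 1 of its ends lies on an annotated exon end, so its exons are not named.

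Fat3, an atypical cadherin, followed with its 3306-base exon 2 (chr9:16374949-16378254, minus strand). It stood at 5245, 6393 and 5428 CPM in contralateral and 7663, 8037 and 6896 CPM in ipsilateral V1, so every contralateral library lay below every ipsilateral one. The log2 fold change (contralateral against ipsilateral throughout) was -0.40 (SE 0.22, unadjusted p = 0.0617 in edgeR's quasi-likelihood test), which is not a call. The circle of Hipk3, a homeodomain-interacting kinase, is exon 2 of 1099 bases (chr2:104470749-104471847, minus strand). It had 4662, 5874 and 4239 CPM contralateral and 5180, 4653 and 6785 CPM ipsilateral, and the groups overlap.

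Nfix, a nuclear factor I transcription factor, gave a circle of 532 bases (chr8:84771784-84772315, minus strand). It varied more, with 7794, 2995 and 3722 CPM contralateral and 5464, 3192 and 3059 CPM ipsilateral. Library 1 is the highest of both hemispheres. Tcf20, a transcriptional coregulator, gave a 5772-base exon 2 circle (chr15:82851513-82857284, minus strand) that was the steadiest of the 12. Its CPM was 4298, 4147 and 5014 contralateral and 4328, 3961 and 4338 ipsilateral, a 1.27-fold range. Zfp609, a zinc finger protein, gave an 874-base exon 2 circle (chr9:65794622-65795495, minus strand) with 2549, 5068 and 5479 CPM contralateral and 3193, 4961 and 3949 CPM ipsilateral. Its groups overlap, and its 3 lowest libraries are those low in mt-Rnr1.

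Pwwp2a encodes a chromatin protein that binds the histone variant H2A.Z. Its 944-base circle (chr11:43704534-43705477, plus strand) stood at 3351, 2534 and 2791 CPM contralateral and 4399, 3845 and 4727 CPM ipsilateral. The groups do not overlap, and the log2 fold change of -0.58 (SE 0.27, unadjusted p = 0.0329) was the one of smallest p among the 12. Setbp1, which encodes a SET-binding protein, was the other of the 12 without overlap beside Fat3 and Pwwp2a, at 2549, 2764 and 2895 CPM contralateral and 3619, 3192 and 4950 CPM ipsilateral (-0.51, SE 0.28, unadjusted p = 0.0671).

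The last 4 of the 12 overlapped between hemispheres. Pcmtd1, an isoaspartate methyltransferase-like gene, ranged from 1947 to 5191 CPM, both in ipsilateral libraries. Snhg11, a small nucleolar RNA host gene, ranged from 2695 to 3949 CPM, and Kcnj6, a G protein-gated potassium channel, from 2412 to 3496 CPM. Neither end of the Snhg11 circle lies on an annotated exon end. Aagab, an adaptin-binding protein, ranged from 1758 to 4225 CPM, both in contralateral libraries. Across the 12 circles the log2 fold changes lay between -0.58 and 0.31, and 8 were lower in contralateral V1. The hemispheres were apart in 3 of the 12, all lower in contralateral V1. Over all circRNAs tested the background was 4.84% below and 3.81% above, and the difference from it was not tested.

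**Figure D2:**
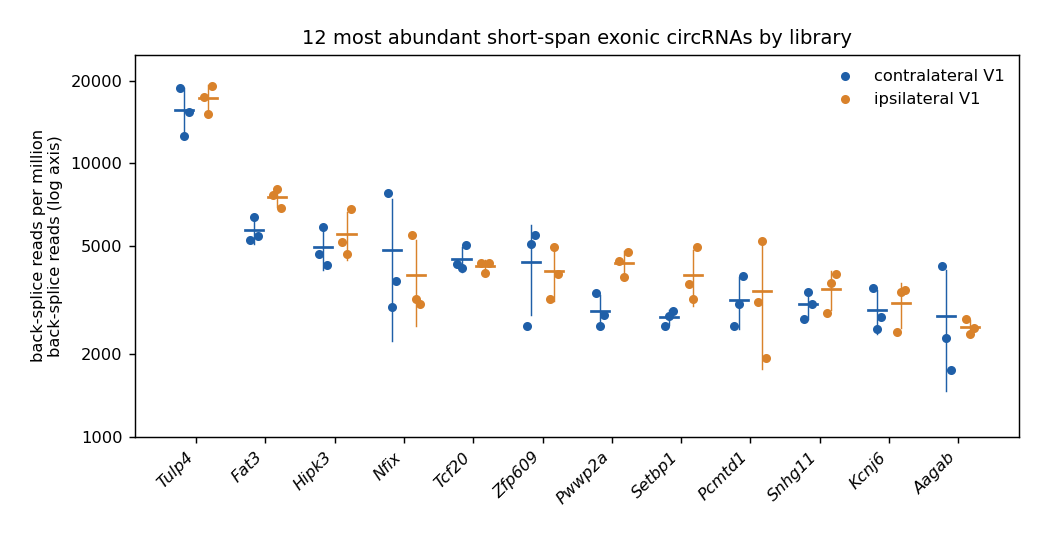
Back-splice CPM (log axis) of the 12 most abundant short-span circRNAs by gene, with 1 point per library, 3 per hemisphere, horizontal bars for means and vertical bars for 1 SD. Hemispheres are apart for Fat3, Pwwp2a and Setbp1, none of them called, and overlap for the other 9.

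Spread between libraries exceeded counting error for many members. Among the 115 with a mean of at least 10 reads, the variance over 6 libraries was a median of 2.00 times the counting variance, and it was over 3 times for 35. The largest excesses were those of Cdyl (13.9 times), a chromodomain corepressor gene, the long noncoding RNA gene Gm26917 (13.7), Nfix (13.6), Pcmtd1 (7.96) and Tulp4 (6.89). The median ratio of the highest to the lowest library was 2.60.

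Levels of circles were next set against their host genes. The ratio used is back-splice reads per 100 host gene reads per kb of host exon, pooled over 6 libraries; host reads include those from the circle's own exons. The median ratio was 2.40 (quartiles 1.07 and 4.92), with 48 members over 10, 12 over 25 and 99 under 1. It was 2.17 for long-span circles and 1.76 for circles of genes with several. Across 443 members, circle and host level per kb had a Spearman correlation of 0.135, which describes genes that share libraries and is not a test. Single-exon circles had a median ratio of 3.61, and those made of exon 2 alone 5.17.

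The highest ratios were close to 100, which is as many back-splice reads as host reads per kb. Cdc14b, a dual-specificity phosphatase gene, had a ratio of 104 and Pvt1, a long noncoding RNA, 97.4. The Pvt1 circle is exon 2 of 318 bases (chr15:62107148-62107465, plus strand) at 2987, 1497 and 2326 CPM contralateral and 3335, 1384 and 2280 CPM ipsilateral, with library 2 the lowest of both hemispheres. Its host stood at only 12.5 CPM of gene reads in each hemisphere. Tulp4 followed at 53.6, Rad52, a DNA repair gene, at 44.4, Fat3 at 40.6 and Pwwp2a at 30.3. Genes overlap the hosts Cdc14b, Pvt1 and Tulp4 in the annotation, and with the strand setting of the counts not given, those host counts are uncertain.

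Among the lowest ratios were circles of very abundant host transcripts. Gpm6a, a neuronal membrane glycoprotein, had a ratio of 0.017, Gm26917 0.025 and Camk2n1, a kinase inhibitor, 0.051. None of these 3 has both ends on annotated exon ends. Over the 15 members with no matched end the median ratio was 0.231 and the median span 247 bases.

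**Figure D3:**
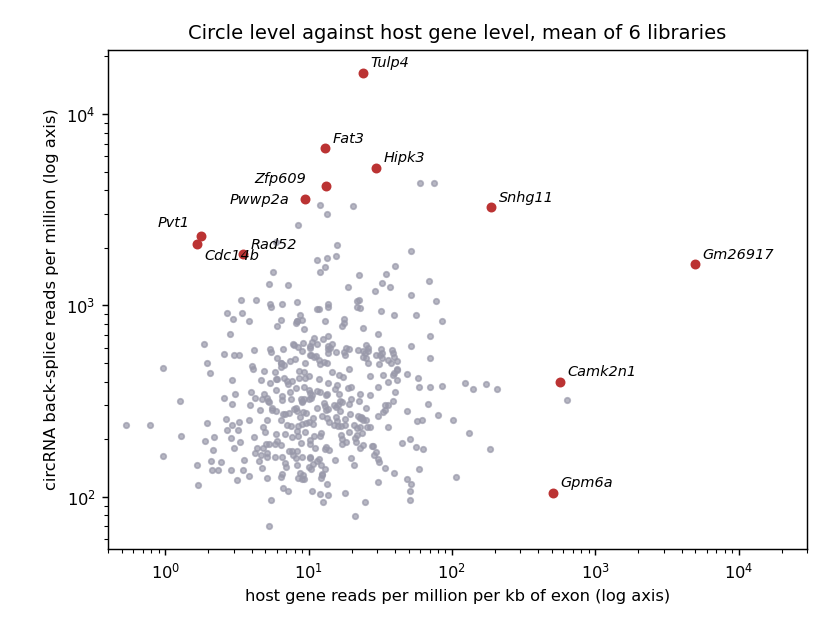
Level of each short-span circRNA (y axis, back-splice CPM) against its host gene (x axis, CPM of gene reads per kb of exon), both log axes and means of 6 libraries, with 1 grey point per circRNA and named ones in red. Pvt1 and Cdc14b sit at low host and high circle level, and Gpm6a, Camk2n1 and Gm26917 at high host level.

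In 27 genes both circRNAs met the rule, which allows circles of a gene to be compared in the same libraries. The median ratio between the higher and the lower circle was 2.21; it was over 2 in 16 pairs, and in 11 pairs the order was the same in all 6 libraries. The acceptor end was shared in 4 pairs and the donor end in 8, 3 pairs overlapped without a shared end, and the rest lay apart. In the overlapping pair of Syt7 the ends differ by 8 bases in all. Whether these are separate circles was not tested. Setbp1 had the widest gap, with 3328 ± 877 CPM for its exon 2 circle and 103 ± 40.5 CPM for its exon 4 circle (SD, n = 6), a 32.3-fold difference. In Rad52 the later circle was the higher one, at 13.4-fold, with 1851 ± 792 CPM for exons 10 to 11 and 138 ± 74.3 CPM for exons 2 to 5.

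Ep400, which encodes a chromatin-remodelling ATPase, made both circles from a shared first exon, as their junctions show (capitals as above).
Ep400 exon 2: gttatcaacgatgagGGGAACAGTACATTG
Ep400 exons 2 to 3: cagcaaccgtttcagGGGAACAGTACATTG
The capitals are the same and the lower-case bases come from exon 2 and exon 3. The exon 2 circle had 1238, 2419 and 1654 CPM contralateral and 1277, 1846 and 2169 CPM ipsilateral. The circle of exons 2 and 3 had 291, 346 and 569 CPM contralateral and 213, 308 and 334 CPM ipsilateral, lower in every library. Cdc14b gave circles whose 5′ ends lie 33 bases apart and share a donor end, at 2100 ± 391 and 147 ± 111 CPM (SD, n = 6). In contrast, the pairs of Zfyve9 (761 ± 224 and 579 ± 262 CPM) and Qrich1 (610 ± 159 and 588 ± 215 CPM) differed by less than their spread.

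The comparison between hemispheres set left V1, opposite the closed eye, against right V1 of the same deprived mice. The right eye was closed in every mouse, so side and deprivation cannot be told apart in it. None of the 441 tested members passed an adjusted p under 0.05 in edgeR's quasi-likelihood test, and the background share called over all 1468 tested circRNAs was 0%. The smallest adjusted p of a member was 0.999. At an unadjusted p under 0.05 there were 14 members, 7 higher and 7 lower in contralateral V1. The background over all circRNAs tested was 3.54%, with 1.63% higher and 1.91% lower. DESeq2 called 0 members too, with 6 at an unadjusted p under 0.05 (background 1.16%). The median log2 fold change was -0.03, with 211 members above and 230 below 0, and the median over all circRNAs tested was -0.02. Scaled by gene-table library sizes, which moved the median of all circRNAs to 0.10, 247 members lay above and 194 below 0.

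All contralateral libraries lay above all ipsilateral ones for 14 members (background 3.81%), and below for 17 (background 4.84%). In each of the 3 mice 45 members were higher (background 10.9%) and 49 lower (background 11.9%) on the contralateral side. Median differences within mice 1 to 3 were 0.04, 0.00 and -0.11. These counts lie near the background. The depth limits what could be seen: in simulated counts of the same depth, 9% of 2-fold and 47% of 4-fold changes in circRNAs were called, beside 52% and 89% for genes. In the simulated ratios, 93.5% of 4-fold changes were called. Those ratios carried counting error alone, with every change upward and host counts as measured. The 93.5% therefore cannot be set beside the 47% and may overstate what the ratio test could see. The median standard error of the log2 fold change was 0.35 for members with a mean of at least 20 reads and 0.71 for those under 10.

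The members with the smallest p among those that moved the same way in 3 mice are given by their values. Cdyl, a single exon 5 of 667 bases (chr13:35815909-35816575, plus strand), had 509.9, 2476 and 2636 CPM contralateral and 355, 1307 and 389 CPM ipsilateral. Both groups hold low and high libraries and overlap. Its log2 fold change was 1.38 (SE 0.41, unadjusted p = 6.93e-04, adjusted p = 0.999). DESeq2 gave 1.43 with an unadjusted p of 0.0220. Without ipsilateral library 2, the only ipsilateral one high in mt-Rnr1, Cdyl passed in edgeR at 2.37 (adjusted p = 0.00683). The part of the mt-Rnr1 set in this pass was not tested. Over all alternatives the adjusted p ran from 0.00683 to 0.999. Restricted to the low mt-Rnr1 set the value was 0.48 and to the high set 0.99, neither a call.

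Srgap1, a GTPase-activating protein of Slit-Robo signalling, had 72.8, 518 and 362 CPM contralateral and 71.0, 38.5 and 111 CPM ipsilateral (log2 2.14, SE 0.78, unadjusted p = 0.00630). Contralateral library 1 lies among the ipsilateral values. Cacna2d3, an auxiliary subunit of voltage-gated calcium channels, had 801, 691 and 465 CPM contralateral and 426, 115 and 111 CPM ipsilateral, without overlap (1.66, SE 0.69). Atp9a, a phospholipid-transporting ATPase gene, had 656, 806 and 465 CPM against 426, 115 and 167 CPM, also without overlap (1.53, SE 0.68). Dlgap2, a postsynaptic scaffold gene, and Mtif2, a mitochondrial translation initiation factor, did not overlap either, at 1.64 (SE 0.78) and 1.77 (SE 0.74). All 5 rest on means of 2.83 to 7.33 reads per library.

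Ankef1, an ankyrin repeat gene, had the smallest p of the members lower in all 3 mice. It had 146, 57.6 and 51.7 CPM contralateral and 497, 499.9 and 167 CPM ipsilateral, without overlap (log2 -2.19, SE 0.84, unadjusted p = 0.00911). Its values of 57.6 and 51.7 CPM lie at the floor of 1 read in a library. Nus1, a gene of dolichol synthesis, had 72.8, 173 and 103 CPM against 639, 192 and 445 CPM, without overlap (-1.72, SE 0.80). The 72.8 CPM lies at the same floor, so the separation of Ankef1 and of Nus1 rests on very few reads. Zzz3, a histone acetyltransferase complex gene, had 801, 749 and 258 CPM against 1135, 1654 and 779 CPM, and the groups overlap (-1.02, SE 0.48). Mettl6, a tRNA methyltransferase, had 656, 806 and 620.3 CPM against 922, 1346 and 1779.7 CPM, without overlap (-0.96, SE 0.45). Gm28661, an unprocessed pseudogene, overlapped (-1.30, SE 0.66); a pseudogene can share reads with its parent, so its count is uncertain.

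**Figure D4:**
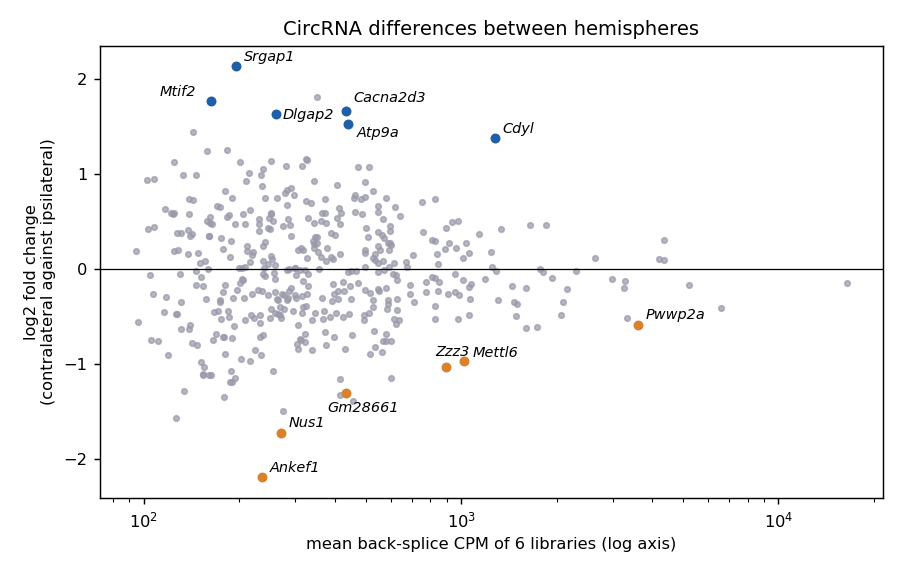
Log2 fold change of contralateral against ipsilateral V1 (y axis) by mean back-splice CPM on a log axis (x axis), with 1 point per tested short-span circRNA. Blue and orange points are the members with the smallest p that were higher or lower in all 3 mice; 0 passed the adjusted threshold, and values spread most at low CPM.

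Host genes of the members were compared in the same libraries. Of 416 tested hosts 0 passed, beside a background of 0.127% of 20473 genes, and the smallest adjusted p was 0.177. At an unadjusted p under 0.05 there were 23 hosts, 3 higher and 20 lower in contralateral V1. The background over all genes was 6.15%, with 3.28% higher and 2.87% lower. The hosts of all circRNAs leaned the same way, with 8 higher and 36 lower of 896. DESeq2 called 2, Tiparp and Prmt8, as lower (background 0.567% of 15709 genes with an adjusted p).

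With the mouse as a block, which pairs both hemispheres of an animal, 3 of 416 hosts passed, all lower in contralateral V1. That share is no larger than the background of 0.894% of all genes. Tiparp, a mono-ADP-ribosyltransferase gene, stood at 14.8, 22.3 and 19.5 CPM of gene reads contralateral and 26.1, 34.2 and 36.9 ipsilateral (log2 -0.78, adjusted p = 8.53e-04 with and 0.274 without the block). Prmt8, a brain arginine methyltransferase, had 55.0, 52.5 and 58.8 against 86.9, 86.8 and 74.1 (-0.57, adjusted p = 0.00667 with and 0.177 without the block). Mapk4, an atypical MAP kinase, had 103, 99.1 and 100.6 against 168, 136 and 121 (-0.47, adjusted p = 0.0307 with and 0.504 without the block). None of the 3 hosts overlapped between hemispheres. Their choice by this same comparison favours that, so it adds no support, and the share of all genes without overlap was not counted.

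Their circles were not called. The circle of Tiparp had 146, 115 and 517 CPM contralateral and 71.0, 731 and 111 CPM ipsilateral (log2 -0.32, SE 0.72), and 1 of its ends lies on an annotated exon end. That of Prmt8 had 219, 115 and 569 CPM against 284, 269 and 55.6 CPM (0.58, SE 0.74). That of Mapk4, exon 2 with the start codon, had 1529.7, 518 and 982 CPM against 1632, 769 and 1001 CPM (-0.15, SE 0.44). All 3 circles overlapped between hemispheres.

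The ratio of circle to host counts was tested for 439 members with limma, and 0 passed (background 0%), with a smallest adjusted p of 0.870. At an unadjusted p under 0.05 there were 18 members (background 3.94%), 15 higher (background 3.03%) and 3 lower (background 0.915%) in contralateral V1. The median log2 change of the ratio was 0.13, against 0.16 over the 1420 ratios tested. Cdyl (1.36, SE 0.46), Srgap1 (1.95, SE 0.68), Cacna2d3 (1.88, SE 0.68) and Atp9a (1.80, SE 0.66) led the higher side among members whose ratio was higher in all 3 mice. Ankef1 (-2.04, SE 0.74), Zfp955a, a zinc finger gene (-1.57, SE 0.62), Gm28661 (-1.22, SE 0.68) and the more abundant Cdc14b circle (-0.63, SE 0.36) led the lower side among members whose ratio was lower in all 3 mice. Host log2 fold changes of these 8 lay between -0.24 and 0.44 with 0 called. The ratio of Cdyl passed without contralateral library 1 (2.12, adjusted p = 0.0146), and its adjusted p spanned 0.0146 to 0.999 over the alternatives. That library is the only contralateral one low in mt-Rnr1, and the part of the mt-Rnr1 set in this pass was not tested.

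Some members differed between the mt-Rnr1 sets. All high libraries lay above all low ones for 32 of 441 members and below for 30, near the backgrounds of 8.79% and 6.13%. Among the 115 members with a mean of at least 10 reads there were 14 above and 9 below, beside backgrounds of 15.2% and 6.52% of the 414 such circRNAs. Cdyl was 5.12 times higher in the high libraries, Snrk, an AMPK-related kinase gene, 3.98 times and Robo1, the Slit receptor, 2.84 times. Snrk had 72.8, 979 and 930 CPM contralateral and 426, 961 and 222 CPM ipsilateral. Robo1 had 437, 749 and 775 CPM contralateral and 213, 1115 and 278 CPM ipsilateral.

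On the other side Zfp955a had 874, 230.4 and 51.7 CPM contralateral and 993, 499.9 and 945 CPM ipsilateral. Mapk4 and Tulp4 were also lower in all 3 high libraries. Host levels of Cdyl were 27.3, 37.3 and 34.2 CPM of gene reads contralateral and 33.9, 30.7 and 25.8 ipsilateral, a far narrower range than its circle. The part of RNA quality or library make-up in these differences was not tested.

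**Figure D5:**
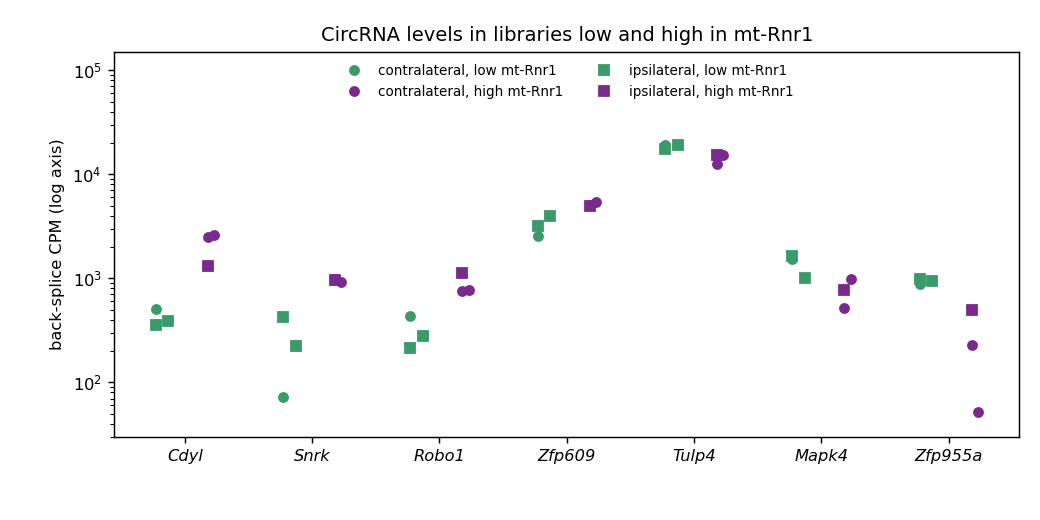
Back-splice CPM (log axis) of 7 short-span circRNAs in each library, with green for libraries low and purple for libraries high in mt-Rnr1, circles for contralateral and squares for ipsilateral V1. The 3 purple points lie above the 3 green ones for Cdyl, Snrk, Robo1 and Zfp609 and below them for Tulp4, Mapk4 and Zfp955a.

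Hosts were grouped by function, and 127 members fell in at least 1 of 9 lists. None of the 27 immediate early genes, the rapid transcriptional response to activity, hosts a member. The list itself had 13 of 26 tested genes called lower in contralateral V1. In every other list 0 circles and 0 of the members' hosts were called, beside the same backgrounds of 0% and 0.127%.

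Chromatin and transcription regulators were the largest group with 36 circles from 31 genes. They had a median log2 fold change of 0.08, 23 higher and 13 lower, beside -0.03 over all members. The list includes Tulp4, Tcf20 and Zfp609 and also Nsd2, a histone methyltransferase gene, at 2064 ± 501 CPM (SD, n = 6; log2 -0.48). Kinases, phosphatases and GTPase regulators had 21 circles (median -0.01, 10 higher and 11 lower), led by Hipk3 and by Arhgap5, a GTPase-activating gene, at 1604 ± 626 CPM (-0.62).

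The postsynaptic scaffold, receptor and adhesion list held 14 circles (median 0.32, 10 higher and 4 lower). Of these, 1 stood at an unadjusted p under 0.05, beside a background of 3.54% over all circRNAs tested. The 14 included the metabotropic glutamate receptor Grm5 at 939 ± 486 CPM (0.49) and the NMDA receptor subunit Grin2b at 827 ± 374 CPM (0.30). Next by level were Robo1, higher in contralateral V1, and Shank3, lower. The active zone and vesicle release list held 5 circles (median 1.00, 3 higher and 2 lower), led by Snap91, a clathrin assembly protein, at 352 ± 376 CPM (1.81, SE 0.74, unadjusted p = 0.0148). Snap91 was the 1 circle of that list at an unadjusted p under 0.05, beside the same background, and was higher in 2 of 3 mice. Stxbp5, next by level at 340 ± 232 CPM, was lower in contralateral V1. Ion channels, pumps and transporters held 13 circles (median 0.02), 1 at an unadjusted p under 0.05 beside the background of 3.54%, with the calcium channel subunit Cacna1a at 1305 ± 558 CPM (-0.33) next after Kcnj6.

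The other lists lay near 0. RNA-binding and splicing proteins held 10 circles (median 0.05), with the nuclear ribonucleoprotein Hnrnpu at 1933 ± 762 CPM (-0.09) as the most abundant. In this list Stau2, which carries RNA into dendrites, had 364, 346 and 103 CPM contralateral and 142, 231 and 111 CPM ipsilateral (0.62, SE 0.73), and the groups overlap. Ubiquitin ligases and proteases held 13 circles (median 0.02), with the conjugating enzyme Ube2d2a at 1192 ± 283 CPM (-0.10). Cytoskeleton and transport genes held 15 (median 0.07), among them the ankyrin Ank3 at 1246 ± 302 CPM (0.19) and Camsap1, a microtubule minus-end protein, at 595 ± 195 CPM (0.46).

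The members without a full exon match and those at the span limit close the account. Among the shortest spans were 91 bases in Hsp90aa1, which encodes a chaperone, and 91 in Ssh2, a cofilin phosphatase gene. Hsp90aa1 had 219, 461 and 517 CPM contralateral and 497, 308 and 334 CPM ipsilateral, and the groups overlap. For 13 members the deposited table carried junction type 0 in place of 1, codes that the sources used here do not define; their median ratio to the host was 0.287. Morc3, an ATPase of nuclear bodies, was the most abundant of these at 2155 ± 473 CPM (SD, n = 6), 5.25 times its other circle. Just inside the limit lay Cfap54, a cilia gene, with a span of 9889 bases and 115 ± 42.2 CPM, and Rnf149, a ubiquitin ligase gene, with 9854 bases and 186 ± 122 CPM. Just outside were Prkacb, a subunit of protein kinase A, with 10113 bases at 210.1 CPM and Lin54, a subunit of the DREAM complex, with 10166 bases at 1065 CPM.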

How the data were processed

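V1 of 3 mice gave 6 libraries with a stranded total RNA kit, per the labels' protocols. The authors deposited unnormalized counts, of back-splice reads for each circRNA and of reads for each gene, per the file headers, and normalized circRNA signal values. All 8928 deposited signal values equal the quantile-normalized counts (tolerance 1e-04) and served only as an alternative. GRCm38, HISAT2, featureCounts, limma and DESeq2 are named by the submitters' processing notes. Not given in the sources used here are the circRNA caller with its filters, the strand setting and the annotation.

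The members, gene lists and tests were chosen with earlier results of these data known. Columns of samples of other series numbered 0. Host genes were matched by symbol and strand to GENCODE M21 (GRCm38), 4 through older RefSeq symbols, and 1 member had no match. CircRNAs with at least 2 reads in 3 libraries (1468) and genes passing filterByExpr (minimum count 10, total 15; 20473) were tested with edgeR 4.0.16 (quasi-likelihood, TMM) in R 4.3.3. Ratios were tested with limma 3.58.1 (trend) on log2 values after adding 0.5 to the counts of circle and host, for 1420 circRNAs whose host was tested. P-values carry Benjamini-Hochberg adjustment over all features tested, with a threshold of 0.05. DESeq2 1.42.0 was an alternative. Standard errors were derived from the log2 fold change and its F statistic. TMM scaling also applied to the CPM levels. Figures used matplotlib 3.10.9.

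The libraries are paired by mouse number in the labels. Deviations from group means over genes correlated within mice at 0.555, 0.117 and 0.256, and between mice at up to 0.227. Over circRNAs the values within mice were 0.135, 0.0070 and 0.012, and between mice up to 0.139, above each value within mice. Named circRNAs were the 12 of highest mean CPM, the 6 per direction of smallest p among those moving the same way in 3 mice, the 4 per direction for ratios, the 6 highest (mean of at least 10 reads) and 4 lowest ratios to the host, a few fixed genes, the shortest spans, the spans nearest the limit and the most abundant pairs. Snrk, Robo1, Tiparp, Prmt8, Mapk4, Qrich1, Syt7 and Zfyve9 were named after their values were seen. A member that the rule selects is not reported here. The fits were tested on simulated data. Molecular identifiers were not used, and intervals cover counting error only.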

Additional observations from a re-analysis of the deposited data

How the results depend on the processing

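Depth limits the circRNA comparison, since 330 of 445 members had a mean under 10 reads. The 12 circRNA and 8 ratio changes of smallest p among members moving one way in all 3 mice and the 3 host changes kept their sign under the alternatives that gave a value. They were chosen by p or by a shared direction in these same libraries. That choice favours a kept sign, which therefore adds no support. Of 16 other circRNAs given with a fold change, 11, all uncalled, took the opposite sign in at least 1 alternative, Fat3, Setbp1, Nsd2, Arhgap5 and Snap91 being the exceptions. Leaving out single libraries or mice, 0 to 2 circRNAs of the table, 0 to 1 members, 0 to 1 hosts and 0 to 1 ratios were called. The 2 circRNAs and 1 member arose without ipsilateral library 2 and the 1 ratio without contralateral library 1, Cdyl in the case of the members; 1 host, Tiparp, was called without ipsilateral library 1 and without mouse 1. The mouse as a replicate block called 3 hosts in place of 0 and changed no circRNA or ratio call. DESeq2 called 2 hosts, no filter on low counts 2, and the low mt-Rnr1 libraries 1 (Gm26917, 0.75), where contralateral V1 has 1 library, whose spread is taken from the others. The cause of these changes was not tested. The median log2 fold change of members moved from -0.03 to 0.0908 with scaling by gene-table library sizes, which also moved the median of all circRNAs from -0.02 to 0.10. It was 0.10 within the high mt-Rnr1 libraries and -0.0506 to 0.0597 without single libraries or mice. Most alternatives of this median were added after seeing the data. The difference in circle reads per 1000 host reads reversed without contralateral library 2 (-0.016) and ran from -0.016 to 0.477. The difference in share stayed negative, from -0.93 to -0.0057 percentage points. All other alternatives left each count of calls at 0.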
